A study of Mus musculus with 12 samples.

Results

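The genes described here are cell adhesion molecules: cadherins, protocadherins, integrins, claudins, junctional adhesion molecules, nectins, contactins, neural cell adhesion molecules, neurexins, their LRRTM partners and astrotactin. They were chosen by name from the authors' deposited table of astrocytes against non-astrocytes, where the name pattern matched 53 entries and 3 genes (Cdh5, Cldn11 and Nlgn2) were left out by the rule. This left 46 genes on 50 probe sets, of 4575 genes named on the arrays and 28467 probe sets tested. The RefSeq table holds 201 protein-coding mouse symbols of this pattern, and those beyond the members were not analysed here. Because that table lists genes that differed between the sorted populations, with an adjusted p up to 0.15, a difference between astrocytes and non-astrocytes was built into the choice of members. It is therefore given as a description, and any count past a threshold in it follows from that choice and is no result. The comparisons by region did not enter the choice.

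The study measured RNA on 12 arrays from the spinal cord of mice at postnatal day 7, each carrying an Aldh1l1-GFP transgene on a Swiss-Webster background. In these mice the promoter of Aldh1l1, an enzyme gene of astrocytes, drives green fluorescent protein, and all 4 groups came from such animals. The groups were dorsal astrocytes and ventral astrocytes, sorted as GFP-positive, and dorsal non-astrocytes and ventral non-astrocytes, sorted as GFP-negative, with 3 biological replicates each. Non-astrocytes are a mixture of all remaining cells, and the labels do not say how many animals made up a replicate. A value below is a log2 signal of a probe set, and a difference of 1 on that scale is a 2-fold difference. Levels of different genes are not compared, since each probe set has its own brightness.

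Cadherins and protocadherins bind their like on neighbouring cells and are tied to the actin cytoskeleton through catenins in the classical family. Integrins are pairs of an alpha and a beta subunit that hold cells to the extracellular matrix, and claudins, junctional adhesion molecules and nectins build contacts at the borders between cells. Contactins, neural cell adhesion molecules and neurexins act in contact between neurites, glia and synapses, and in the nervous system astrocytes use such molecules to touch vessels, synapses and each other.

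A few members are shown with their promoter windows because the results below turn on them. Cldn10 and Pcdh15 lie at the high and the low end of the difference between astrocytes and non-astrocytes, Itgam is an integrin gene of microglia, and Cntn6 had the lowest p of the members between dorsal and ventral astrocytes. The windows run from 250 bases before to 50 bases after each RefSeq start on GRCm38.p6 and read 5′ to 3′ on the strand of the gene. Capitals mark matches, on either strand, to GAGGAA, the core bound by the myeloid factor PU.1, to TTGGC, part of the site of nuclear factor I, or to the TATA box TATAAA.
Cldn10, upstream start, chr14:118787621-118787920, + strand: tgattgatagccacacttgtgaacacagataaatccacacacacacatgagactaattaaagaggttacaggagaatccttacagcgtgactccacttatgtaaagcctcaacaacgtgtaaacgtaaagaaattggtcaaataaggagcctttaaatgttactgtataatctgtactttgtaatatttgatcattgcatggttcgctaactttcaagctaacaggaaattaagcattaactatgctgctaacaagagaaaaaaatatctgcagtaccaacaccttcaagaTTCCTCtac
Cldn10, downstream start, chr14:118854700-118854999, + strand: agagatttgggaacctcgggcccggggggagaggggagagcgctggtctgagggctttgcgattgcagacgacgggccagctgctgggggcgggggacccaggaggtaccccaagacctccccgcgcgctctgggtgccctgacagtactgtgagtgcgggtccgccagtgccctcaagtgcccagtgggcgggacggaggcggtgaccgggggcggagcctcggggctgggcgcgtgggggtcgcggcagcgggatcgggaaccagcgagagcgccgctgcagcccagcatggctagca
Pcdh15, chr10:73821617-73821916, + strand: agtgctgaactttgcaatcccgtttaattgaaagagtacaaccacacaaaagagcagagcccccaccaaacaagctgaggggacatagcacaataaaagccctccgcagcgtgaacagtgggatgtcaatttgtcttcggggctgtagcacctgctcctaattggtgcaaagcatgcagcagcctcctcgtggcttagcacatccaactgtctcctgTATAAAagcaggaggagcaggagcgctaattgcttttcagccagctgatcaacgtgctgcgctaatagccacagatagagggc
Itgam, chr7:128062390-128062689, + strand: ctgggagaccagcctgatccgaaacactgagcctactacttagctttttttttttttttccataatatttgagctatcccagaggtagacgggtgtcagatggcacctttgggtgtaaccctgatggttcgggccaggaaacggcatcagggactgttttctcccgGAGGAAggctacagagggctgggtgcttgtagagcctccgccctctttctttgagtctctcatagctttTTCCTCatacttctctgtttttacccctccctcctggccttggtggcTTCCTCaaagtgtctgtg
Cntn6, chr6:104492794-104493093, + strand: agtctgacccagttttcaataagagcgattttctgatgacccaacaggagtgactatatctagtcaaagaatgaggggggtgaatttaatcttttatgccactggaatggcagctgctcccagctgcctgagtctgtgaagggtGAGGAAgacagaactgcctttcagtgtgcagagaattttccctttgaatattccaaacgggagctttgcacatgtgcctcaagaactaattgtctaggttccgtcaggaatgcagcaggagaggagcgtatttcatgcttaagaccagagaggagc
Of the 46 members, 30 had at least 1 window, 42 windows in all. Among all 32851 windows of this length, 28.3% held GAGGAA, 46.7% TTGGC and 13.6% TATAAA, and among the 42 member windows 15, 19 and 4 did. The Itgam window held 3 matches to GAGGAA, that of Cntn6 1, and the upstream window of Cldn10 1, while that of Pcdh15 held 1 match to TATAAA. The 2 windows of Cldn10, a gene known for alternative first exons, differed in base composition, with 4 CG dinucleotides in the upstream and 27 in the downstream one. A match is a description of the letters and not a bound site.

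The labels were checked against marker genes, and on most of the markers measured the arrays fell as their labels say. A listed gene is called measured here if a probe set could be named through the authors' deposited tables, and others may be on the arrays unnamed. Those tables list genes that differed, so a marker that did not separate the populations could be missing from the check. All 8 astrocyte markers, among them Aqp4 and Slc1a3, were higher in astrocytes, with a mean log2 signal of 10.35 to 10.60 in astrocyte arrays and 6.67 to 7.02 in non-astrocyte arrays. In astrocytes the 7 measured microglia markers averaged 6.47 to 7.20, against 8.61 to 9.43 in non-astrocytes, and the 6 oligodendrocyte precursor markers 7.65 to 8.09 against 9.20 to 9.62. The 5 endothelial markers, with Cldn5 among them, averaged 5.99 to 6.34 in astrocytes and 6.37 to 7.42 in non-astrocytes, and the 5 neuron markers 7.70 to 8.61 in astrocytes and 8.44 to 8.84 in non-astrocytes. Of the neuron markers, Nefl (0.93) and Nefm (0.78) were higher in astrocytes, so this list did not separate the populations as those above did. Of the 4 measured pericyte and fibroblast markers 3 were lower in astrocytes, while Col1a2 was higher (0.60). Cdh19, the 1 measured Schwann and ganglion marker, was higher as well (0.66), with populations that overlapped. Array signals have no true 0, so no marker can be called absent. The median log2 signal of an array was 6.57 to 6.62, and with 3 arrays a group precision is limited by their number. In such sorted pools, fewer cells of a type and less RNA per cell cannot be told apart.

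**Figure D1:**
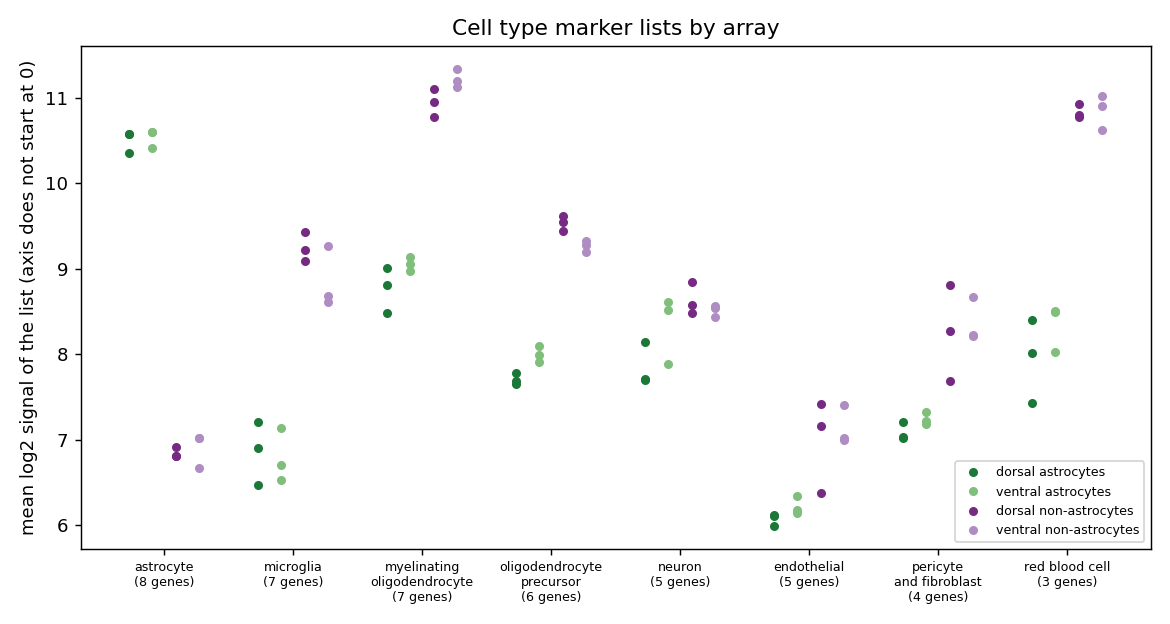
Mean log2 signal of each cell type marker list (vertical axis, log2 signal) on every array, by list, with the number of genes measured. Points are arrays, 3 per group, and the groups are coloured. Astrocyte markers lie at 10.35 to 10.60 in astrocyte arrays and at 6.67 to 7.02 in non-astrocyte arrays, and the oligodendrocyte precursor list is separated by region within each population.

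Between astrocytes and non-astrocytes, 21 of the 46 genes were higher in astrocytes and 25 lower, with a median log2 difference of -0.63 and a range from -2.61 for Pcdh15 to 4.12 for Cldn10. The median over all tested probe sets was -0.01, and over the 5116 probe sets with a gene name -0.39. At least 2-fold differences were seen for 9 genes on the side of astrocytes and 8 on that of non-astrocytes, 37% of members, where 6.28% of all tested probe sets and 31.9% of named ones differed as much. The choice of members fixed that nearly all lay under an adjusted p of 0.05 in limma, 45 of them, where 36.2% of all tested probe sets and 99.6% of the named ones did, and nothing is read from this count. In 39 of the 46 genes all 6 astrocyte values lay on one side of all 6 non-astrocyte values, and 22.3% of all tested probe sets and 85.7% of the named ones were so separated. By count, 5 of 7 cadherins were higher in astrocytes, the 3 contactins and the 3 LRRTM genes were lower, and integrins, protocadherins and junction proteins were divided.

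**Figure D2:**
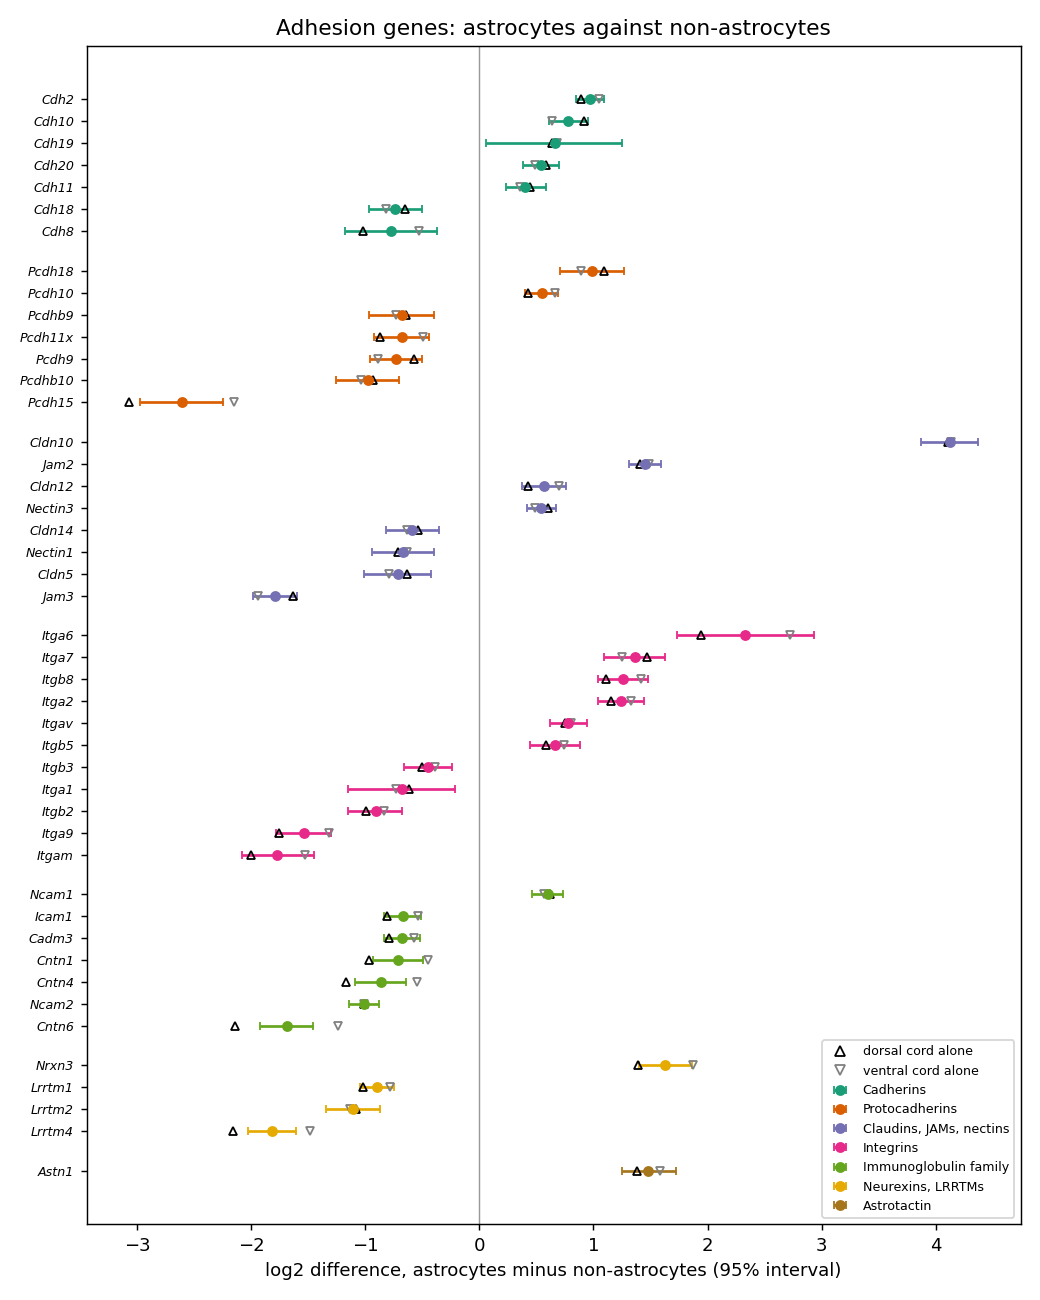
Log2 difference of astrocytes minus non-astrocytes (horizontal axis) for 45 of the 46 adhesion genes, by family. Filled points are the mean of both regions with the 95% interval of limma, and open triangles are the dorsal (up) and ventral (down) cord alone. Differences run from -2.61 for Pcdh15 to 4.12 for Cldn10, and each gene has the same sign in both regions.

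Cdh2 encodes N-cadherin, the classical cadherin of neural cells. Its log2 signal was 9.59, 9.64 and 9.70 in dorsal astrocytes and 9.78, 9.68 and 9.72 in ventral astrocytes, against 8.77, 8.79 and 8.70 in dorsal and 8.72, 8.68 and 8.63 in ventral non-astrocytes. Every astrocyte array was above every non-astrocyte array and the spread within a population was small, so that Cdh2 was 1.96-fold higher (log2 difference 0.97, SE 0.05). Cdh10 (0.78, SE 0.08), Cdh20 (0.54, SE 0.08) and Cdh11 (0.40, SE 0.08), which encode type II cadherins, were higher by less. Cdh19, a type II cadherin gene known from Schwann cell precursors, had a mean of 7.16 (SD 0.63) over the 6 astrocyte arrays and of 6.51 (SD 0.39) over the 6 non-astrocyte arrays. Its populations overlapped, and its lowest astrocyte value, 6.10 in ventral astrocytes 1, lay below 5 of the 6 non-astrocyte values.

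Cdh18 and Cdh8, type II cadherin genes of neurons, were the lower cadherins, at -0.74 (SE 0.11) and -0.77 (SE 0.19). Cdh8 had a value of 8.12 in dorsal non-astrocytes 3, where its other non-astrocyte values were 6.61 to 6.93. Cdh18 was measured by 2 probe sets that differed in how they behaved by region. The brighter read -0.65 within the dorsal and -0.82 within the ventral cord, and the dimmer -1.27 and -0.15.

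Protocadherins are cadherin relatives that lack catenin binding. Of the 7 among the members, 2 were higher in astrocytes and 5 lower. Pcdh15, a gene of the tip links of hair cells that is also known as a marker of oligodendrocyte precursors, had 6.46, 6.17 and 5.86 in dorsal and 6.33, 7.21 and 6.13 in ventral astrocytes. In dorsal non-astrocytes it had 9.14, 9.32 and 9.24, and in ventral non-astrocytes 8.80, 8.87 and 8.44. The populations were far apart, with Pcdh15 6.09-fold lower in astrocytes (log2 difference -2.61, SE 0.17), and ventral astrocytes 2 stood above the other astrocyte arrays. All 6 measured oligodendrocyte precursor markers were lower in astrocytes too, with Pdgfra at -2.59 (SE 0.12) and Gpr17 at -2.39 (SE 0.11), and their part in the Pcdh15 difference was not tested.

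Pcdh9 was lower at -0.73 (SE 0.11), and its second probe set gave -0.72 (SE 0.11). Of the clustered protocadherins, whose isoforms give neurons a surface identity, Pcdhb10 stood at -0.98 (SE 0.13) and Pcdhb9 at -0.68 (SE 0.13). Both belong to a cluster of closely similar genes, so a probe set may also read relatives, and these values are uncertain for the single gene. Pcdh11x stood at -0.68 (SE 0.11), with populations that overlapped. Higher in astrocytes were Pcdh18 (0.99, SE 0.13) and Pcdh10 (0.55, SE 0.07).

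Claudins seal tight junctions between cells, and some form ion pores. Cldn10, a pore-forming claudin gene, had 10.33, 10.16 and 10.42 in dorsal and 9.79, 10.10 and 10.55 in ventral astrocytes, against 6.24, 5.98 and 6.35 in dorsal and 6.14, 5.94 and 5.99 in ventral non-astrocytes. The populations were far apart, 9.79 being the lowest astrocyte value and 6.35 the highest non-astrocyte value. Cldn10 was 17.4-fold higher in astrocytes (log2 difference 4.12, SE 0.12), and its second probe set, with the same direction on each array, gave 11.4-fold (3.51, SE 0.11). For comparison, the general astrocyte genes Aqp4 and Slc1a3 stood at 5.09 and 3.72. On both probe sets the Cldn10 values of non-astrocytes lay under the median signal of an array, where differences are measured less surely. Cldn12 was higher by 0.57 (SE 0.09), whereas Cldn14 (-0.59, SE 0.11) and Cldn5 (-0.71, SE 0.14) were lower and overlapped between populations.

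Cldn5, the main claudin gene of the endothelial barrier, was lowest among non-astrocytes in dorsal non-astrocytes 1, at 6.94, where the other 5 arrays had 7.52 to 7.94. The endothelial list, which includes Cldn5, averaged 6.37 on that array and 6.99 to 7.42 on the other non-astrocyte arrays, and the 4 pericyte and fibroblast markers 7.69 there and 8.21 to 8.81 elsewhere. Of these 4, Rgs5, Kcnj8 and Abcc9 were lowest there among non-astrocytes. Col1a2 was instead highest there, at 7.87 against 7.24 to 7.57. Itga1, a collagen-binding integrin gene of vessel walls, was lowest among non-astrocytes on the same array, at 5.98 against 6.21 to 7.32. The part of vessel cells in these values was not tested.

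The 2 junctional adhesion molecules lay on opposite sides. Jam2 had 10.52 to 10.89 in astrocytes with a median of 10.69, and 9.17 to 9.33 in non-astrocytes with a median of 9.24, a 2.73-fold higher signal in astrocytes (1.45, SE 0.06). Jam3, whose product can bind that of Jam2 across a cell contact, had 6.40 to 6.56 with a median of 6.48 in astrocytes, and 7.90 to 8.60 with a median of 8.25 in non-astrocytes, 3.45-fold lower in astrocytes (-1.79, SE 0.09). Neither gene had an array that crossed between populations. The nectins were divided as well, with Nectin3 at 0.54 (SE 0.06) and its binding partner gene Nectin1 at -0.67 (SE 0.12).

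Of the 11 integrin subunits, 6 were higher in astrocytes and 5 lower. Itga6, a laminin receptor subunit gene, had 10.19, 10.36 and 10.98 in dorsal and 9.43, 10.36 and 10.71 in ventral astrocytes, against 9.16, 8.17 and 8.38 in dorsal and 6.90, 7.18 and 8.27 in ventral non-astrocytes. It was 5.02-fold higher in astrocytes (2.33, SE 0.28), with no overlap but with the widest spread among non-astrocytes of the members (SD 0.83, n = 6). Itga7, another laminin receptor subunit gene, had a mean of 7.44 (SD 0.35) over the 6 astrocyte arrays and of 6.08 (SD 0.05) over the 6 non-astrocyte arrays (1.36, SE 0.13). Itga2, of the collagen receptor, stood at 1.24 (SE 0.09).

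Of the subunits that pair as receptors for matrix proteins with an RGD motif and for latent TGF-beta, Itgb8, Itgav and Itgb5 were higher and Itgb3 lower. Itgb8, whose only known partner is the alpha V subunit, had 11.04 to 11.34 with a median of 11.22 in astrocytes and 9.64 to 10.38 with a median of 9.95 in non-astrocytes (1.26, SE 0.10). Itgav itself stood at 0.78 (SE 0.07) and Itgb5, a further partner, at 0.66 (SE 0.10), each with populations that did not overlap. Itgb3, also a partner of alpha V, was lower at -0.45 (SE 0.10), and its populations overlapped.

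Itgam and Itgb2 encode the alpha M and beta 2 subunits of complement receptor 3 of microglia and other myeloid cells. Itgam had 5.67, 5.37 and 6.32 in dorsal and 5.53, 5.85 and 5.83 in ventral astrocytes, against 7.73, 7.71 and 7.93 in dorsal and 7.28, 6.98 and 7.53 in ventral non-astrocytes (-1.77, SE 0.15). Itgb2 had 5.61 to 6.12 in astrocytes and 6.39 to 7.12 in non-astrocytes (-0.91, SE 0.11). Both genes had astrocyte means under the median signal of an array, where differences are measured less surely. All 7 measured microglia markers were lower in astrocytes as well, from -1.65 for P2ry12 to -2.95 for Ctss, and their part in the integrin differences was not tested. Itga9, a subunit gene for a tenascin receptor, stood at -1.54 (SE 0.11).

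**Figure D3:**
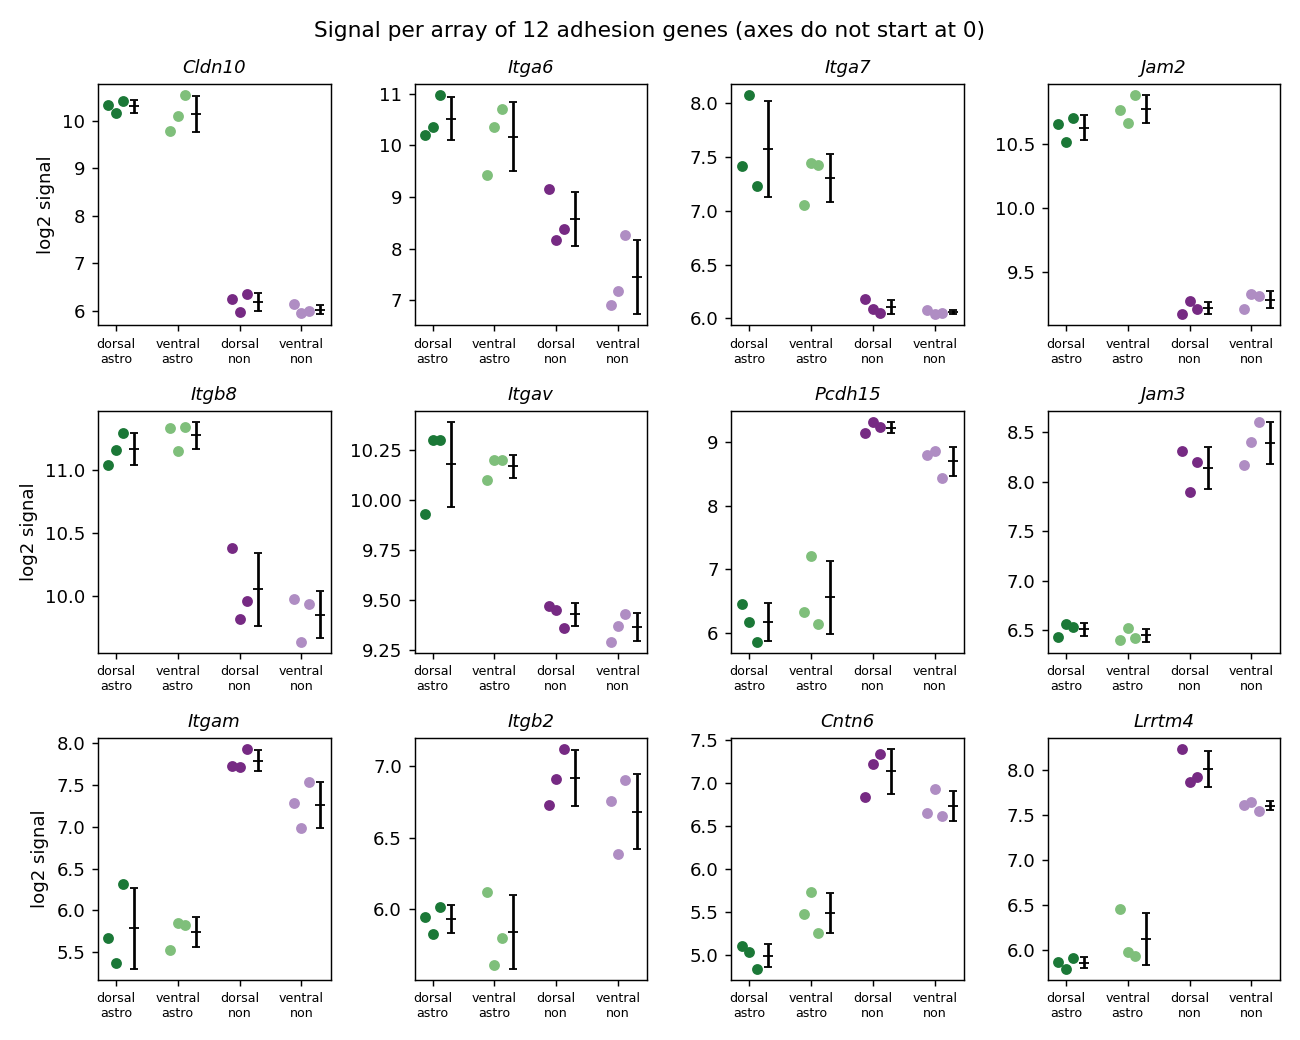
Log2 signal (vertical axis, a separate range in each panel) on every array for 12 of the adhesion genes in dorsal and ventral astrocytes and dorsal and ventral non-astrocytes. Points are arrays, 3 per group, and bars give the group mean and SD. Cldn10, Itga6, Itga7, Jam2, Itgb8 and Itgav are higher in astrocytes and the other 6 lower, with no overlap of the populations.

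Among the immunoglobulin family, 1 of 7 genes, Ncam1, was higher in astrocytes and 6 were lower. Ncam1, the neural cell adhesion molecule, stood at 0.60 (SE 0.06), and its relative Ncam2 at -1.01 (SE 0.06). Ncam1 had 10.38 to 10.53 in astrocytes and 9.75 to 9.99 in non-astrocytes, and Ncam2 9.49 to 9.75 in astrocytes and 10.53 to 10.73 in non-astrocytes. Neither overlapped between populations, and both directions held in each region. Cadm3, a nectin-like gene of neurons, was lower at -0.68 (SE 0.07), and Icam1, a leukocyte ligand that pairs with beta 2 integrins, at -0.67 (SE 0.08).

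All 3 contactins, glycolipid-anchored proteins of axons and oligodendrocyte lineage cells, were lower in astrocytes. Cntn6 had 5.10, 5.03 and 4.84 in dorsal and 5.48, 5.73 and 5.26 in ventral astrocytes, against 6.84, 7.22 and 7.34 in dorsal and 6.65, 6.93 and 6.61 in ventral non-astrocytes. It was 3.23-fold lower in astrocytes (-1.69, SE 0.11), whose values lay far below the array medians. Cntn4 stood at -0.86 (SE 0.10) and Cntn1 at -0.71 (SE 0.10). In all 3 the difference between populations was larger in the dorsal cord, at -2.14, -1.17 and -0.97, than in the ventral cord, at -1.24, -0.55 and -0.45, and the test of that difference is given with the regional results.

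Neurexins are presynaptic receptors, and LRRTM proteins are among their postsynaptic partners. Nrxn3 had a mean of 9.10 (SD 0.19) over the 6 astrocyte arrays and of 7.47 (SD 0.30) over the 6 non-astrocyte arrays, 3.1-fold higher in astrocytes (1.63, SE 0.11). The 3 LRRTM genes were all lower, Lrrtm4 3.53-fold (-1.82, SE 0.10), Lrrtm2 2.15-fold (-1.11, SE 0.11) and Lrrtm1 1.87-fold (-0.90, SE 0.07). None of these genes overlapped between populations. Astn1, a gene first known from the migration of young neurons along glia, was 2.8-fold higher in astrocytes, at 9.56 ± 0.25 against 8.08 ± 0.16 (SD, n = 6 each; 1.48, SE 0.11).

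Genes outside the name pattern that work with these molecules were followed through lists. Their probe sets were named through the authors' deposited tables too, so the comparison is again a description. List genes not measured may be on the arrays without a name, and the counts do not stand for a whole list. Of 11 catenins and other cadherin partners, 6 were measured, 4 higher in astrocytes and 2 lower. Ctnna3, an alpha catenin gene, had the largest difference at 3.73 (SE 0.12), followed by Vcl, vinculin, at 1.61 (SE 0.14), while Pkp4 (-0.89) and Arvcf (-0.37), of the p120 catenin family, were lower. Of 18 integrin adaptors and kinases, 9 were measured, with 3 higher, led by Parva (1.13) and Tns1 (0.85), and 6 lower, led by Parvb (-1.47) and Tns3 (-1.42). Parva and Parvb, paralogs that bind integrin-linked kinase, thus lay on opposite sides.

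Of 12 large cadherins and calsyntenins, 6 were measured, with 5 higher, led by Fat3 (1.85) and Fat4 (1.82), and 1 lower, Clstn3 (-0.54). Among tight junction partners, the scaffold gene Tjp1 was higher at 0.64 (SE 0.10). Of 19 further immunoglobulin adhesion genes, 16 were measured and divided into 10 higher and 6 lower. They were led by Chl1, a relative of L1, at 4.06 (SE 0.16) and Vcam1 at 3.42 (SE 0.06), and in the other direction by Dscam (-2.02) and Opcml (-1.99). Other synaptic adhesion genes divided into 9 higher and 7 lower of 16 measured out of 29. The higher ones were led by Sparcl1, a secreted modulator of neurexin and neuroligin contact, at 2.36 and Adgrl2, a latrophilin, at 2.27. The lower ones were led by Slitrk3 (-1.30) and Cbln1 (-0.92).

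Dorsal astrocytes were set against ventral ones to see whether adhesion genes differ by position, the study being about positional cues made by these cells. In limma, 0 of the 46 members passed an adjusted p of 0.05, where 0.341% of all tested probe sets and 1.21% of those with a gene name did. The authors' deposited table of this comparison, made from the same arrays, also lists 0 genes of the name pattern. Probe sets named through that table are among the named ones. Shares of named probe sets in this comparison may therefore be raised by that choice. At an unadjusted p under 0.05 there were 4 members, all lower in dorsal astrocytes, which is 8.7%, while 5.94% of all tested probe sets and 7.74% of the named ones were lower at that level. The differences ran from -0.50 to 0.34 with a median of -0.02, which was also that of all tested probe sets. The median SE over the members was 0.15.

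The 3 contactins and Itga2 were those 4 members. Cntn6 had 5.10, 5.03 and 4.84 in dorsal astrocytes, against 5.48, 5.73 and 5.26 in ventral astrocytes, a log2 difference of -0.50 (95% interval -0.83 to -0.17, adjusted p = 0.26 in limma). Cntn4 had 6.07, 6.24 and 5.68 in dorsal astrocytes, against 6.58, 6.60 and 6.24 in ventral astrocytes (-0.47, 95% interval -0.79 to -0.16, adjusted p = 0.26). Cntn1 had 9.86, 10.14 and 10.59 in dorsal astrocytes, against 10.51, 10.64 and 10.56 in ventral astrocytes (-0.37, 95% interval -0.68 to -0.06, adjusted p = 0.38). The dorsal values were lower on average in each gene, but the groups were fully separated only for Cntn6. Itga2 had 7.69, 7.61 and 7.83 in dorsal astrocytes, against 7.98, 8.11 and 8.24 in ventral astrocytes (-0.40, 95% interval -0.69 to -0.12, adjusted p = 0.30), with no overlap. Non-overlapping groups were found for 3 members, Cntn6, Itga2 and Lrrtm4, each with the dorsal arrays below. This is 6.52% of members, against 7.23% of all tested probe sets and 7.7% of the named ones.

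The 8 general astrocyte markers had a median difference of -0.03, with 4 higher and 4 lower in dorsal astrocytes and 0 passing in limma. Among them Slc1a3 stood at -0.21 (95% interval -0.39 to -0.03, adjusted p = 0.40), with the dorsal arrays below the ventral ones, and Gfap at -0.59 (adjusted p = 0.49). Markers of oligodendrocyte precursors averaged 7.65 to 7.78 in dorsal and 7.91 to 8.09 in ventral astrocytes, with 0 of 6 passing in limma, and neuron markers 7.70 to 8.14 in dorsal and 7.89 to 8.61 in ventral astrocytes, with 0 of 5 passing. Of 7 myelinating oligodendrocyte markers 6 were lower in dorsal astrocytes, with a median of -0.23 and 0 passing, and Mbp stood at -0.53 (95% interval -0.77 to -0.28, adjusted p = 0.093) with no overlap. These 3 lists thus ran on average in the direction of the contactins, while 1 gene of each was higher in dorsal astrocytes, among them Pdgfra (0.20). The part of the lists in the contactin values was not tested.

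In each of the other families the member with the lowest p did not pass either. Among cadherins this was Cdh20 (-0.12, adjusted p = 0.74), among clustered protocadherins Pcdhb9 (0.19, adjusted p = 0.78) and among other protocadherins Pcdh15 (-0.40, adjusted p = 0.61). Among the junction genes these were Cldn12 (-0.15, adjusted p = 0.74), Jam2 (-0.15, adjusted p = 0.61) and Nectin1 (-0.19, adjusted p = 0.76). Itgb3 (-0.18, adjusted p = 0.70), Ncam2 (-0.10, adjusted p = 0.74), Cadm3 (-0.09, adjusted p = 0.83) and Icam1 (0.02, adjusted p = 0.97) stood for their classes. Of the synaptic genes, Lrrtm4 stood at -0.27 (adjusted p = 0.54), and Astn1 stood at 0.01 (adjusted p = 0.99). For Cldn10, the gene furthest above non-astrocytes, dorsal astrocytes had 10.33, 10.16 and 10.42, against 9.79, 10.10 and 10.55 in ventral astrocytes (0.16, 95% interval -0.20 to 0.51, adjusted p = 0.79), and the groups overlapped.

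Of the genes in the partner lists, 2 passed between dorsal and ventral astrocytes. They were 1 of 6 measured catenins and partners and 1 of 6 measured large cadherins and calsyntenins. In the other lists 0 of 9, 2, 16 and 16 measured genes passed. Over all tested probe sets 0.341% passed, and 1.21% of the named ones. Names came also from the authors' table of this comparison, so a difference by region could itself bring a gene into a list. Fat4, a giant cadherin of planar polarity, rose in dorsal astrocytes, with 8.54, 8.76 and 8.84 in dorsal astrocytes against 7.74, 7.63 and 7.47 in ventral astrocytes (log2 difference 1.10, SE 0.14, adjusted p = 0.0053 in limma). It also stands in the authors' deposited table of this comparison, which was made from the same arrays and is no separate evidence. In non-astrocytes Fat4 was higher dorsally too, with 6.39, 6.35 and 6.84 against 6.08, 6.34 and 6.07 (0.36, SE 0.14, adjusted p = 0.78 in limma). Its regional difference was larger in astrocytes by 0.74, which did not pass (adjusted p = 0.36 in limma). Pkp4 fell in dorsal astrocytes, with 7.50, 7.44 and 7.68 in dorsal astrocytes against 8.09, 8.34 and 8.12 in ventral astrocytes (-0.65, SE 0.11, adjusted p = 0.026 in limma). In neither gene did the dorsal and ventral astrocyte arrays overlap. The Fat4 call held without any 1 array, with an adjusted p of 0.0017 to 0.026, but was lost without the arrays of replicate 1 (0.078) or replicate 2 (0.21). The Pkp4 call was lost without dorsal astrocytes 1, ventral astrocytes 1, dorsal astrocytes 2 or ventral astrocytes 2, with an adjusted p of 0.096, 0.05, 0.097 and 0.091.

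Between dorsal and ventral non-astrocytes, 0 of the 46 members passed in limma, against 0.0492% of all tested probe sets and 0.117% of the named ones. At an unadjusted p under 0.05 there were 10 members, all higher in dorsal non-astrocytes, which is 21.7%, while 2.5% of all tested probe sets and 6.1% of the named ones were higher at that level. The dorsal arrays lay above all ventral ones for 10 members, against 5.73% of all tested and 8.37% of the named probe sets, and below them for 2, Ncam2 and Cdh20, against 7.04% and 9.73%. With the replicate number as a block, 0 members passed and 11 had an unadjusted p under 0.05, while over all tested probe sets 0 passed with the block and 14 without it.

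The largest of these differences was that of Itga6, with 9.16, 8.17 and 8.38 in dorsal non-astrocytes, against 6.90, 7.18 and 8.27 in ventral non-astrocytes (1.12, 95% interval 0.27 to 1.97, adjusted p = 0.65 in limma). The groups overlapped, since ventral non-astrocytes 3 had more than dorsal non-astrocytes 2. Nrxn3 (0.43), Pcdh15 (0.53), Itgam (0.53), Pcdh11x (0.43), Lrrtm4 (0.41), Cntn6 (0.40), Icam1 (0.29) and Pcdh10 (0.28) were among the others, with adjusted p of 0.61 to 0.93. The dimmer probe set of Cdh18 had 7.83, 7.57 and 7.68 in dorsal non-astrocytes, against 6.94, 6.83 and 6.54 in ventral non-astrocytes (0.92, SE 0.20, adjusted p = 0.22). The brighter one, which stands for the gene, gave -0.02, so the probe sets of Cdh18 do not give one answer.

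Oligodendrocyte precursor markers averaged 9.44 to 9.62 in dorsal and 9.20 to 9.32 in ventral non-astrocytes, and 5 of 6 were higher dorsally with 0 passing. Microglia markers averaged 9.09 to 9.43 in dorsal and 8.61 to 9.27 in ventral non-astrocytes, and 7 of 7 were higher dorsally with 0 passing. These marker lists ran in the direction of Pcdh15 and of Itgam and Icam1, and their part in those values was not tested. The 7 myelinating oligodendrocyte markers ran the other way, all lower in dorsal non-astrocytes with a median of -0.23 and 0 passing, at an average of 10.77 to 11.10 in dorsal and 11.13 to 11.34 in ventral non-astrocytes.

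Whether the regional difference itself differed between astrocytes and non-astrocytes was tested by the interaction, which is the same as the difference between the dorsal and the ventral sort differences. In limma, 0 of the 46 members passed, against 0.0632% of all tested probe sets and 0.274% of the named ones. At an unadjusted p under 0.05 there were 7, all with a lower dorsal minus ventral difference in astrocytes than in non-astrocytes, which is 15.2%, while 3.84% of all tested and 6.02% of the named probe sets were so. Cntn6 stood at -0.90 (95% interval -1.37 to -0.43, adjusted p = 0.32), from -0.50 in astrocytes and 0.40 in non-astrocytes. Pcdh15 stood at -0.92 (95% interval -1.65 to -0.20, adjusted p = 0.56), Lrrtm4 at -0.67 (adjusted p = 0.40) and Cntn4 at -0.63 (adjusted p = 0.50). Cntn1 stood at -0.52 (adjusted p = 0.59) and Nrxn3 at -0.48 (adjusted p = 0.67).

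Lrrtm4 was the member whose groups were separated in opposite directions. It had 5.87, 5.79 and 5.91 in dorsal astrocytes, against 6.46, 5.98 and 5.93 in ventral astrocytes, and 8.24, 7.87 and 7.93 in dorsal non-astrocytes, against 7.62, 7.65 and 7.55 in ventral non-astrocytes. The separation in astrocytes was narrow, with 5.91 next to 5.93, and lay at signals below the array medians. By its median over 6 genes, the oligodendrocyte precursor list was likewise lower in dorsal astrocytes (-0.33) and higher in dorsal non-astrocytes (0.35). Not every gene did so. Pdgfra was higher dorsally in astrocytes (0.20) and in non-astrocytes (0.55), and Neu4 was lower dorsally in both (-0.37 and -0.08). The part of the list in the values of these members was not tested.

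**Figure D4:**
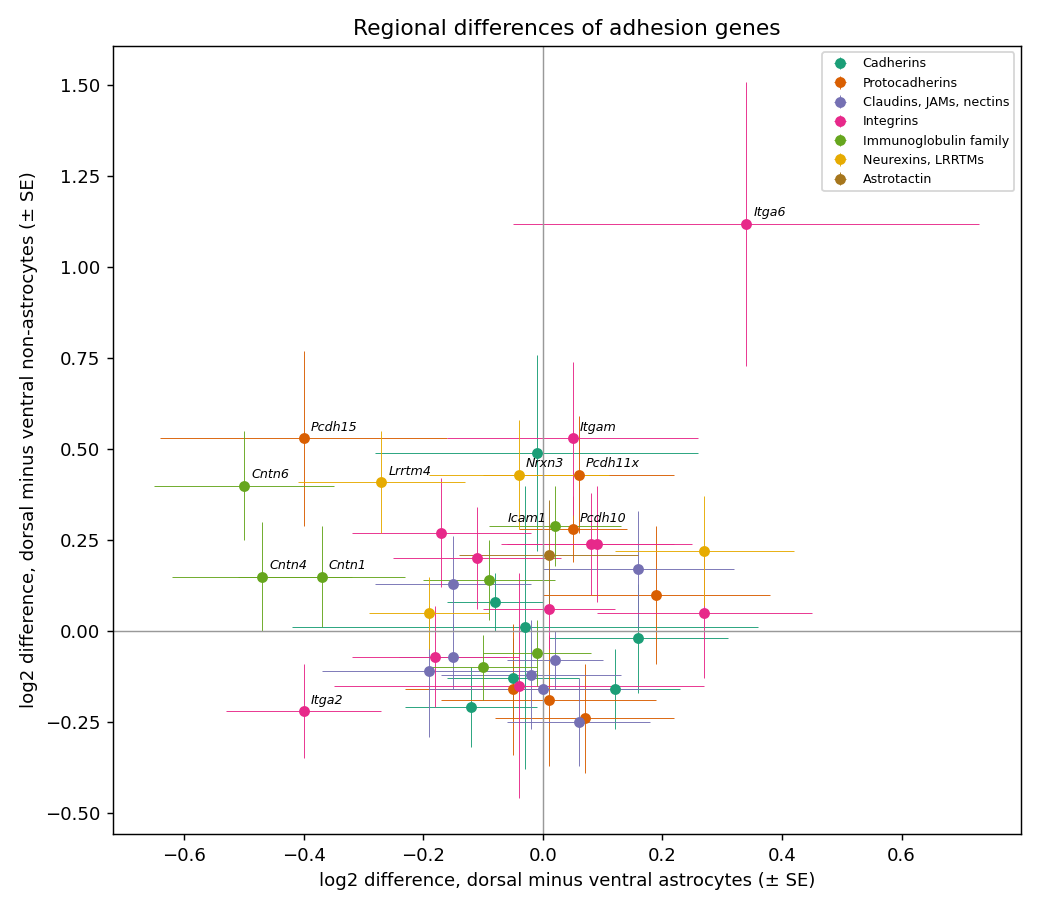
Log2 difference of dorsal minus ventral astrocytes (horizontal axis) and of dorsal minus ventral non-astrocytes (vertical axis) for 45 of the 46 adhesion genes, coloured by family. Points are differences of group means (3 arrays each) with the SE of limma, and drawn genes with an unadjusted p under 0.05 in at least 1 regional test are named. No gene passed after adjustment, and the 3 contactins, Pcdh15 and Lrrtm4 lie to the upper left.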

How the data were processed

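RNA of 12 samples was measured on 1-colour microarrays. The series table holds log2 values that the authors deposited, and the submitters' processing notes name oligo, RMA and limma without versions. The authors' deposited tables add a linear fold ratio, a moderated score and p-values per listed probe set. A genome build for the arrays was not stated there. Probe sets were named where their values equalled an entry of these tables to 6 decimals, since the columns there give only a group. Of 35556 probe sets, 476 repeated another, and a leading block of 6613 was left out, so 28467 were tested. Group means were fitted with limma 3.58.1 (R 4.3.3; two-sided, Benjamini-Hochberg over all tested probe sets, threshold 0.05), tested on simulated data; tables used Python 3.11.15 and pandas 2.3.3. No value was filtered for low signal, and the brightest probe set stands for a gene.

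Members, lists and tests were chosen with earlier results of these data known. By rule, the text names the members furthest apart in each class, those called by region, the one of lowest p per class without a call, and the leading genes of each partner list. Members with an unadjusted p under 0.05 and Cldn10 by region were added after their values were seen. Replicates are biological per the labels. The column names of the authors' deposited tables repeat 3 code numbers across the 4 groups, and neither they nor the labels say what a number marks. Deviations from the group means correlated at 0.172, 0.147 and 0.209 between dorsal and ventral non-astrocytes of one number, each over 0.1. For other pairs of groups the same-numbered correlations were 0.0394 to 0.145, all positive and not all over 0.1, among them 0.112, 0.124 and 0.0857 between ventral astrocytes and ventral non-astrocytes. Differently numbered arrays gave -0.139 to 0.0558. Alternatives were a replicate block, array weights, other probe set filters, centring, a trended prior, fewer arrays and another choice of probe set. Some genes that entered the fits and counts are not reported here by name.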

Additional observations from a re-analysis of the deposited data

Results flagged for a closer look

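In 92 sets of 6 arrays (46 genes in astrocytes and in non-astrocytes), 4 values stood apart from the other 5, with a gap to the nearest larger than Dixon's critical share of the whole range, which chance gives in about 1 in 20. Lrrtm4 had 6.46 in ventral astrocytes 1, and its other astrocyte values were 5.79 to 5.98. Cdh8 had 8.12 in dorsal non-astrocytes 3, with 6.61 to 6.93 elsewhere among non-astrocytes. Pcdhb9 had 7.38 in dorsal non-astrocytes 2, against 6.91 to 7.04, and Itga7 6.18 in dorsal non-astrocytes 1, against 6.04 to 6.09.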

How the results depend on the processing

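The number of members called stayed at 0 in the 3 regional comparisons under every alternative run, and at 44 to 46 between astrocytes and non-astrocytes, apart from 40 of the 41 members left above the median signal, where the choice of members fixes the count. At an unadjusted p under 0.05, leaving out 1 array gave 3 to 7 members between dorsal and ventral astrocytes, 7 to 11 between dorsal and ventral non-astrocytes and 4 to 9 in the interaction. The replicate block gave 5, 11 and 9 and changed no call of a member. Over all tested probe sets, the calls moved more. Between dorsal and ventral astrocytes there were 97, with 8 without replicate 2 and 108 with the block. Between dorsal and ventral non-astrocytes there were 14, with 0 under the block and 43 with array weights, and in the interaction 18, with 12 under the block and 1 without replicate 1.

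Between astrocytes and non-astrocytes, where values are a description, the difference of Itga1 was -0.50 without dorsal non-astrocytes 2 and -0.54 without ventral non-astrocytes 3, and that of Cdh19 0.93 without ventral astrocytes 1 and 1.05 without replicate 1. Among regional differences near 0, signs turned. Between dorsal and ventral astrocytes, Astn1 gave -0.02 with array weights and -0.14 to -0.00 without single arrays or replicates, Icam1 -0.05 to -0.01, Cldn10 -0.04 and -0.02, Pcdhb9 -0.02 and Nectin1 0.01. Over all settings without an array or a replicate these ran from -0.14 to 0.15 for Astn1, -0.05 to 0.07 for Icam1, -0.04 to 0.36 for Cldn10, -0.02 to 0.35 for Pcdhb9 and -0.36 to 0.01 for Nectin1. Between dorsal and ventral non-astrocytes, Cdh18 gave 0.01 with array weights, 0.07 without ventral non-astrocytes 1 or replicate 1, 0.02 without dorsal non-astrocytes 3 and 0.92 with its second probe set, over a range of -0.12 to 0.07 without an array or a replicate. The partner genes were followed through alternatives chosen after seeing the data. Pkp4 was also lost with array weights (adjusted p = 0.082), with the leading block of probe sets (0.064), with astrocyte arrays alone (0.15) and without replicate 1, 2 or 3 (0.22, 0.31 and 0.11). Fat4 was lost without replicate 1 (0.078) or 2 (0.21). The cause of these changes was not tested, apart from the fewer arrays in those that leave some out. Members near the lower end of signal, such as Cntn6 and Itgam in astrocytes, had signals below the array medians. The astrocyte means of Lrrtm4 (5.99), Cntn4 (6.23) and Pcdh15 (6.36) lay below them too, so their regional differences in astrocytes are measured less surely.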
